A study of Mus musculus with 6 samples.

Results

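The T-box genes Tbx1, Tbx2, Tbx3, Tbx4, Tbx5, Tbx15, Tbx18 and Tbx20 were examined in mouse embryonic fibroblasts (MEFs), connective tissue cells grown from mouse embryos, that lacked or carried Atxn3. Atxn3 encodes a deubiquitinating enzyme, and the study asked how its loss changes gene expression. The 8 genes were taken as every probe set whose annotation names one of them and no other gene, which gave 18 probe sets of 45037 and 8 genes of 18193 with such a probe set. A probe set is a group of short oligonucleotides on the array that reads transcripts of a gene. RNA of 3 Atxn3-KO MEF samples and 3 Atxn3-WT MEF samples was read on Affymetrix GeneChip mouse genome arrays, and levels are log2 values after robust multi-array average (RMA) normalization. Atxn3-KO MEFs came from Atxn3 knockout mice and Atxn3-WT MEFs from wild-type littermates, and both were grown in the same medium. The methods call the 3 samples of a genotype biological replicates and state that the mice were matched for sex and age. However, the sources used here do not give the embryos' age or sex, or how many embryos or cell lines stand behind each genotype. The p-values therefore cover only the spread between these samples, which could be technical, and genotype cannot be told apart from a difference between cell lines.

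T-box proteins are transcription factors that share a DNA-binding domain, the T-box, and activate or repress genes that pattern the embryo. Tbx1, Tbx15, Tbx18 and Tbx20 belong to a branch of the family that acts in the pharynx, somites, skin and heart. Tbx2, Tbx3, Tbx4 and Tbx5 form another branch, which acts in limbs, heart and lung, and in the mouse genome Tbx2 lies beside Tbx4 and Tbx3 beside Tbx5. Fibroblasts keep the activity of many such patterning genes from the body region they came from.

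Of the 18 probe sets, limma called 12 at an adjusted p under 0.05, with 8 up and 4 down in Atxn3-KO MEFs, and 6 did not pass. Over all 45037 probe sets, 26.0% passed, 12.5% higher and 13.5% lower. Represented by the probe set with the highest mean level, Tbx3, Tbx5 and Tbx18 rose, Tbx1, Tbx2 and Tbx15 fell, and Tbx4 and Tbx20 did not pass, that is 6 of 8 genes against 31.8% of all genes. The median log2 fold change of the 8 genes was 0.16 and the median of its size was 0.55, against 0.0021 and 0.11 over all genes. The 8 genes were chosen with earlier results of these data known, so these contrasts describe them and do not test the family. Of the probe sets at or above the median level 54.4% were called when only these were tested, including 11 of the 11 T-box probe sets among them. The 3 arrays of a genotype did not overlap with those of the other in 13 of the 18 probe sets, 9 higher and 4 lower, against 41.1% of all probe sets. A change of at least 2-fold with an adjusted p of at most 0.001, the threshold of the study, was passed by 1 probe set, that of Tbx1, against 1.31% of all probe sets in either direction and 0.515% lower. Counted by gene this is 1 of 8, against 1.93% of all genes. When limma tested for a change larger than 1.2-fold, 7 of the 18 probe sets passed, against 5.53% of all probe sets. In bulk RNA of this kind, fewer cells that express a gene and less of its RNA per cell cannot be told apart.

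**Figure D1:**
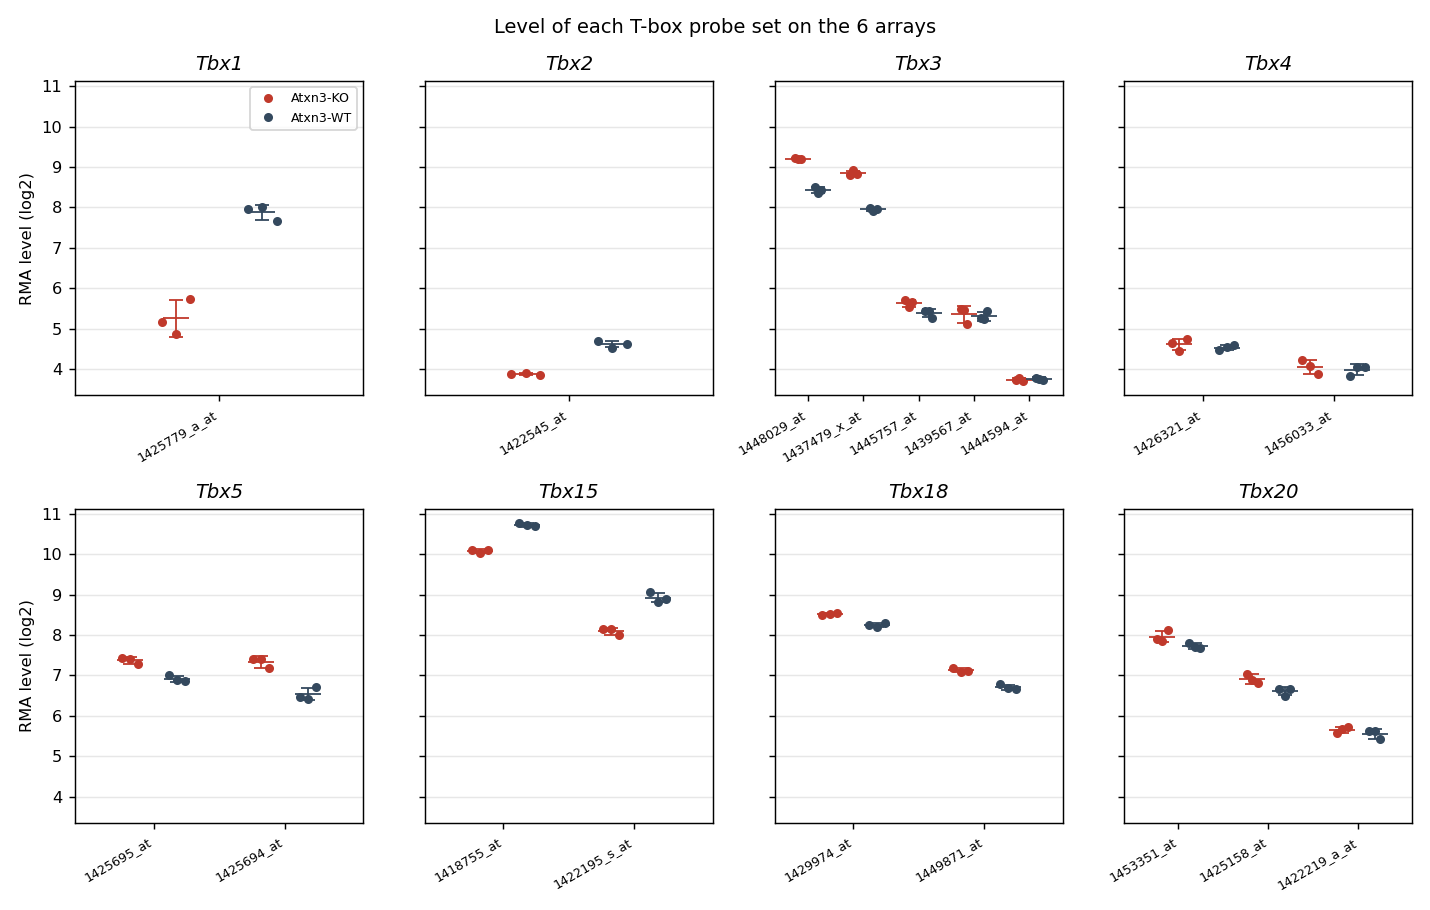
RMA log2 levels of the 18 T-box probe sets on each array, with Atxn3-KO left of Atxn3-WT in every panel; points are arrays, and the line and bar give the mean and SD of 3 arrays. Tbx1 shows the widest gap, with means of 5.25 in Atxn3-KO MEFs and 7.88 in Atxn3-WT MEFs, and the groups of Tbx4 overlap on both of its probe sets.

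Atxn3 itself was read first as a check of the labels. Its brighter probe set had log2 levels of 3.60, 3.43 and 3.73 in Atxn3-KO MEFs and 6.53, 6.81 and 6.66 in Atxn3-WT MEFs. All 3 Atxn3-KO arrays lay far below the Atxn3-WT arrays, with a log2 fold change of -3.08 (SE 0.096, adjusted p = 2.09e-06 from limma). Its dimmer probe set had -0.35 (SE 0.14, adjusted p = 0.117), and the sources used here do not say which exons these probe sets read or which were deleted. Array medians were 5.97 to 6.002, pairs of arrays of a genotype correlated at 0.998 or more over probe sets, and at most 0.386% of values were identical between arrays. Of 12 fibroblast markers, the median log2 level was 13.2 to 13.3 on the Atxn3-KO arrays and 13.2 to 13.3 on the Atxn3-WT arrays. To show what these arrays read for genes that fibroblasts do not use, 18 genes of specialised cells such as photoreceptors, pancreatic islets and lymphocytes were listed, and their levels ranged between 3.14 and 6.87 with a median of 4.81. Of these 18, limma called Amelx alone, at -0.19. The top of the range came from Amelx, Ins2 and Prm1, whose probe sets carry a suffix for probes that can also match other transcripts. Below them Opn1sw was brightest, with means of 5.996 in Atxn3-KO MEFs and 5.96 in Atxn3-WT MEFs. A reading above the Opn1sw levels lies within the range by these brighter genes alone. Of 4 measured genes of the inactive X and of the Y chromosome, 0 were called by limma and 0 passed an unadjusted p of 0.05, with Xist at a mean log2 level of 11.99 in Atxn3-KO MEFs and 11.89 in Atxn3-WT MEFs. The 25th percentile of the arrays lay at 4.36 to 4.39. The 3 Y chromosome genes measured, Eif2s3y, Uty and Kdm5d, lay below it on every array.

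Tbx1, which is required for the pharyngeal arches and the outflow tract of the heart and whose human counterpart is a main gene of DiGeorge syndrome, fell the most of the 8 genes. Its only probe set, 1425779_a_at, had log2 levels of 5.16, 4.86 and 5.74 in Atxn3-KO MEFs and 7.97, 8.01 and 7.66 in Atxn3-WT MEFs. Every Atxn3-KO array was below every Atxn3-WT array, and the Atxn3-KO arrays were the more scattered, spanning 0.88 against 0.34. The log2 fold change was -2.63 (SE 0.21, 95% interval -3.13 to -2.13, adjusted p = 0.000155 from limma), a change in level of -83.8%. The Atxn3-KO levels lie within the range read for the genes of specialised cells, so the fold change is not exact. With 1 array left out at a time the log2 fold change was -2.87 to -2.43. The threshold of the study was then missed without Atxn3-KO replicate 1 (adjusted p = 0.00145 from limma), without Atxn3-WT replicate 1 (0.00153) and without Atxn3-WT replicate 2 (0.00126), and also with the replicate number as a block (0.00198).

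Promoter windows, 250 bases before to 50 after a start site, were taken from RefSeq on build GRCm38.p6, where 4 of the 8 genes matched, with 5 windows. Both Tbx1 windows are shown because Tbx1 fell the most, and the Tbx18 window is shown beside them as that of a relative that rose. Each is printed on the strand of the gene, with every CG, the pair of bases that can be methylated, in capitals. The windows are chr16:18590622-18590921 and chr16:18588850-18589149 for Tbx1 and chr9:87731211-87731510 for Tbx18, all on the minus strand.
Tbx1 window 1: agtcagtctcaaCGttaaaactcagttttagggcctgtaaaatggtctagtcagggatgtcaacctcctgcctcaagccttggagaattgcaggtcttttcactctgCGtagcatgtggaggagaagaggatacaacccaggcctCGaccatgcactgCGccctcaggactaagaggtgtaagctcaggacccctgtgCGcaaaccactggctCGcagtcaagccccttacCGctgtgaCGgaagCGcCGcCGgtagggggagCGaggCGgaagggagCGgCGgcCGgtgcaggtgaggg
Tbx1 window 2: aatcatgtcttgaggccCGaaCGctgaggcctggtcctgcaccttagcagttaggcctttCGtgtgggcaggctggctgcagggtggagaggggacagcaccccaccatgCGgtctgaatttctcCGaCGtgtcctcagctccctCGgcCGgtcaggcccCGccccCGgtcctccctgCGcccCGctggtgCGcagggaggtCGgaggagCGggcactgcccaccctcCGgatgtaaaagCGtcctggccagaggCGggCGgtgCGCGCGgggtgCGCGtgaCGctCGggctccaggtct
Tbx18: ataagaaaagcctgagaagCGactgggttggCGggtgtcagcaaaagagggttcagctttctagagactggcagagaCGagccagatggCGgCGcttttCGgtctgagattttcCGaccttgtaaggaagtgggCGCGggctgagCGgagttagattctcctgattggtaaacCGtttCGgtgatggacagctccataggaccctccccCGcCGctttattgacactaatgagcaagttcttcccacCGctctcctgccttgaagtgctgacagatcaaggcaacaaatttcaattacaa
Tbx1 window 1 holds 16 CG and has a GC content of 58.3%, and window 2 holds 26 CG at 69.0%. The Tbx18 window holds 15 CG at 51.7%, the Tbx20 window 26 at 68.3% and the Tbx4 window 8 at 59.0%, beside medians of 7 CG and 52.7% over 32851 windows of the same length. All 5 windows thus hold more CG than the median window, whether the gene was lower, higher or not called. The sources used here do not say from which Tbx1 start site the transcripts read by the probe set begin. Short motifs were searched on both strands. The core of a T-box site, GGTGTGA, is in 3.98% of all windows of this length. The forkhead core TGTTTAC is in 3.65%. The core bound by zinc finger factors of the Gata family, AGATAA, is in 11.2%. The box from which many promoters position the polymerase, TATAAA, is in 13.6%. In the 5 windows only the last was found, once, at position -85 from the Tbx4 start site on the opposite strand, and no match overlapped another. These matches describe letters and no binding was measured.

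Tbx15, which shapes the skeleton of the limbs and head and the pigment pattern of the skin, fell on both of its probe sets. Probe set 1418755_at had log2 levels of 10.09, 10.03 and 10.12 in Atxn3-KO MEFs and 10.77, 10.72 and 10.69 in Atxn3-WT MEFs. On 1422195_s_at, whose suffix marks probes shared by several transcripts, the levels were 8.14, 8.15 and 7.99 in Atxn3-KO MEFs and 9.06, 8.83 and 8.89 in Atxn3-WT MEFs. The groups stood apart on each, by far more than the SDs of 0.043 to 0.12 within a genotype. The log2 fold changes were -0.65 (SE 0.047, 95% interval -0.76 to -0.54, adjusted p = 9.63e-05) and -0.83 (SE 0.074, 95% interval -1.004 to -0.66, adjusted p = 0.000246 from limma), which correspond to changes in level of -36.2% and -43.75%.

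Tbx18, which acts in the somites, the epicardium and the pacemaker of the heart, rose on both probe sets, by less than Tbx15 fell. Levels on 1429974_at were 8.49, 8.51 and 8.54 in Atxn3-KO MEFs and 8.24, 8.20 and 8.30 in Atxn3-WT MEFs. Levels on 1449871_at were 7.18, 7.08 and 7.12 in Atxn3-KO MEFs and 6.78, 6.68 and 6.67 in Atxn3-WT MEFs. No Atxn3-KO array overlapped an Atxn3-WT array on either probe set. The log2 fold changes were 0.27 (SE 0.045, adjusted p = 0.00451) and 0.41 (SE 0.052, adjusted p = 0.00119 from limma), levels 20.4% and 33.1% higher.

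Tbx20, a regulator of heart muscle, was less settled. The brightest of its 3 probe sets, 1453351_at, had levels of 7.91, 7.86 and 8.13 in Atxn3-KO MEFs and 7.80, 7.71 and 7.67 in Atxn3-WT MEFs. These groups did not overlap, but Atxn3-KO replicate 2 lay only just above the highest Atxn3-WT array, and the log2 fold change of 0.24 (SE 0.078, 95% interval 0.054 to 0.42, adjusted p = 0.0639 from limma) was not called. Probe set 1425158_at had 7.05, 6.88 and 6.81 in Atxn3-KO MEFs and 6.66, 6.50 and 6.68 in Atxn3-WT MEFs, a log2 fold change of 0.30 (SE 0.078, adjusted p = 0.0276 from limma) that was called. That call was lost without Atxn3-KO replicate 1 or 2 and without Atxn3-WT replicate 1 or 2, with adjusted p-values of 0.0565 to 0.0804. On 1422219_a_at the levels were 5.58, 5.67 and 5.72 in Atxn3-KO MEFs and 5.62, 5.61 and 5.42 in Atxn3-WT MEFs, overlapping, with 0.11 (SE 0.070, adjusted p = 0.333). When the median over a gene's probe sets was tested in place of the brightest, Tbx20 was called at 0.30 (SE 0.075, adjusted p = 0.018 from limma).

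**Figure D2:**
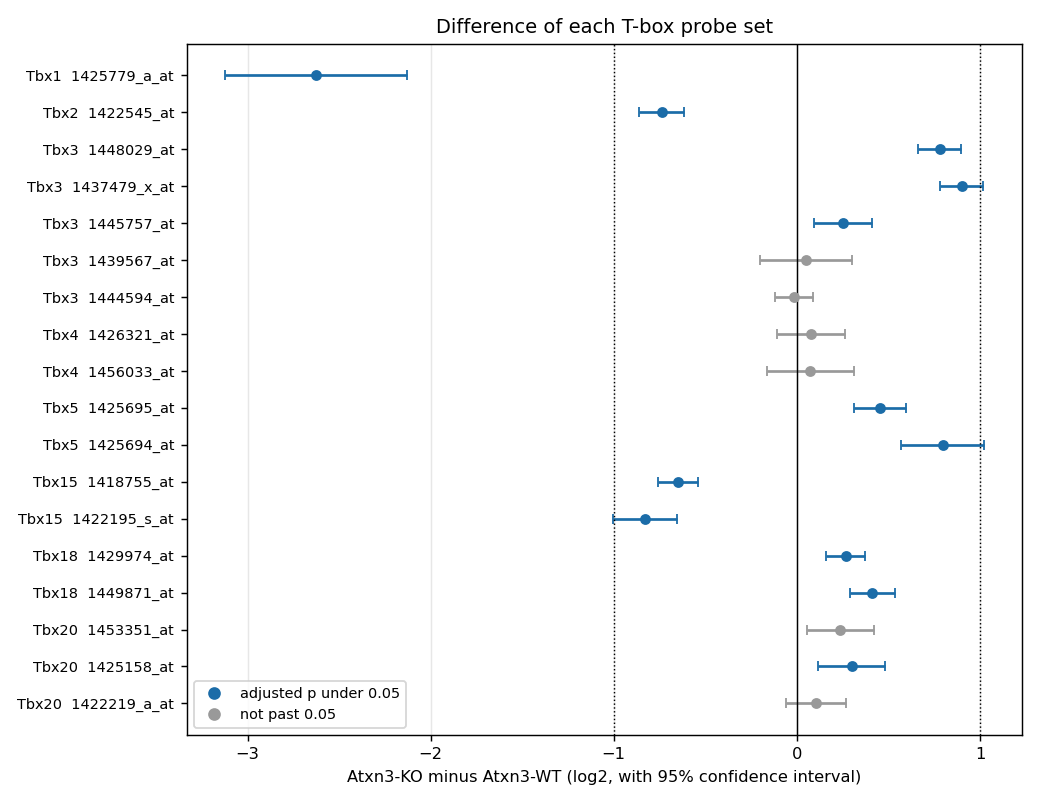
Log2 fold change (Atxn3-KO minus Atxn3-WT) of each T-box probe set with its 95% interval from limma, in blue for an adjusted p under 0.05 and grey otherwise, with dotted lines at a 2-fold change. Tbx1 stands at -2.63, Tbx2 and Tbx15 between -0.83 and -0.65, and the called probe sets of Tbx3, Tbx5, Tbx18 and Tbx20 between 0.25 and 0.90.

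In the other branch, the transcriptional repressors Tbx2 and Tbx3, which act in heart, limb and mammary gland and hold back cell senescence, moved in opposite directions. Tbx2 (1422545_at) had log2 levels of 3.88, 3.89 and 3.86 in Atxn3-KO MEFs and 4.69, 4.53 and 4.63 in Atxn3-WT MEFs. Its groups were tight and apart, with a log2 fold change of -0.74 (SE 0.053, 95% interval -0.86 to -0.62, adjusted p = 8.95e-05 from limma), a change in level of -40.1%. Tbx2 was dim in both genotypes. All 3 Atxn3-KO arrays lay below the 25th percentile of their array, against 0 of 3 Atxn3-WT arrays. Both means lay below the median of the genes of specialised cells. These levels therefore do not establish that Tbx2 was expressed, and the size of its change is not exact.

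Tbx3 rose on 3 of its 5 probe sets. The brightest, 1448029_at, had levels of 9.23, 9.21 and 9.19 in Atxn3-KO MEFs and 8.50, 8.35 and 8.44 in Atxn3-WT MEFs. The next, 1437479_x_at, whose suffix marks probes that can also match other transcripts, had 8.81, 8.92 and 8.82 in Atxn3-KO MEFs and 7.99, 7.90 and 7.96 in Atxn3-WT MEFs. Both sets of arrays stood well apart, with log2 fold changes of 0.78 (SE 0.051, 95% interval 0.66 to 0.90, adjusted p = 6.04e-05) and 0.90 (SE 0.050, adjusted p = 2.81e-05 from limma), that is 1.72-fold and 1.87-fold. The third, 1445757_at, had 5.71, 5.54 and 5.65 in Atxn3-KO MEFs and 5.43, 5.44 and 5.26 in Atxn3-WT MEFs, a smaller log2 fold change of 0.25 (SE 0.068, adjusted p = 0.0314 from limma). Its call was lost without Atxn3-KO replicate 1 or 3 and without Atxn3-WT replicate 1 or 3 (adjusted p = 0.0574 to 0.0966). The groups overlapped on 1439567_at, at 5.49, 5.45 and 5.11 in Atxn3-KO MEFs and 5.25, 5.23 and 5.43 in Atxn3-WT MEFs, with a log2 fold change of 0.050 (SE 0.11, adjusted p = 0.787). They also overlapped on 1444594_at, at 3.72, 3.77 and 3.71 in Atxn3-KO MEFs and 3.79, 3.76 and 3.72 in Atxn3-WT MEFs, with -0.018 (SE 0.044, adjusted p = 0.815), below the 25th percentile on every array. The fold changes of the 5 Tbx3 probe sets thus spread over 0.92 on the log2 scale, and the size of the rise depends on the probe set. Which Tbx3 transcripts each of them reads was not analysed here.

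Tbx5, which is required for the forelimb and the heart chambers and is mutated in human Holt-Oram syndrome, rose on both probe sets. Levels on 1425695_at were 7.43, 7.40 and 7.29 in Atxn3-KO MEFs and 7.01, 6.89 and 6.86 in Atxn3-WT MEFs. Levels on 1425694_at were 7.42, 7.42 and 7.18 in Atxn3-KO MEFs and 6.48, 6.43 and 6.71 in Atxn3-WT MEFs. Groups did not overlap on either, and Atxn3-KO replicate 3 was the lowest of its group on both. The log2 fold changes were 0.45 (SE 0.060, 95% interval 0.31 to 0.59, adjusted p = 0.00151) and 0.80 (SE 0.097, 95% interval 0.57 to 1.02, adjusted p = 0.00101 from limma). On 1425694_at the Atxn3-WT levels lie within the range read for the genes of specialised cells, near its upper end. On 1425695_at Atxn3-WT replicate 3 does so as well, so neither fold change of Tbx5 is exact. The Atxn3-WT levels of 1449871_at of Tbx18 and 1425158_at of Tbx20 also lie within this range, as does Atxn3-KO replicate 3 on 1425158_at. On 1445757_at of Tbx3 both genotypes lie within it. These fold changes are not exact either. Tbx4, the counterpart of Tbx5 in the hindlimb and a factor of lung mesenchyme, was dim and overlapped between genotypes. On 1426321_at it had 4.64, 4.45 and 4.74 in Atxn3-KO MEFs and 4.46, 4.54 and 4.59 in Atxn3-WT MEFs, and on 1456033_at 4.22, 4.07 and 3.87 in Atxn3-KO MEFs and 3.82, 4.06 and 4.05 in Atxn3-WT MEFs. The log2 fold changes were 0.077 (95% interval -0.11 to 0.26, adjusted p = 0.541) and 0.073 (95% interval -0.17 to 0.31, adjusted p = 0.663 from limma). At these levels, within the range of the genes of specialised cells, a change of Tbx4 may not be detectable on this array.

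Of 9 further T-box genes listed, 7 were measured on 13 probe sets. The only one called was Eomes, beside 31.8% of all genes. Eomes acts in the trophoblast, in gastrulation and in lymphocytes. Eomes had log2 levels of 6.74, 6.57 and 6.68 in Atxn3-KO MEFs and 7.49, 7.70 and 7.64 in Atxn3-WT MEFs on 1426001_at. On 1435172_at it had 6.12, 6.57 and 6.49 in Atxn3-KO MEFs and 7.30, 7.28 and 7.17 in Atxn3-WT MEFs. Both probe sets were lower in Atxn3-KO MEFs with no overlap, at log2 fold changes of -0.95 (SE 0.071, adjusted p = 0.000114) and -0.86 (SE 0.11, adjusted p = 0.00149 from limma). The Atxn3-KO levels on both lie within the range read for the genes of specialised cells, so these fold changes are not exact. Mga, a repressor that also carries a MAX-binding domain, had 5 probe sets between 0.042 and 0.20, none called. Tbr1, Tbx6, Tbx19, Tbx21 and Tbx22 were not called either, with log2 fold changes between -0.19 (Tbx22, adjusted p = 0.106) and 0.077 (Tbx6, adjusted p = 0.639 from limma). Tbr1, Tbx21 and Tbx22 lay below the 25th percentile on every array. Tbx6 and Tbx19 lay within the range of the genes of specialised cells. A change of any of these genes may not be detectable on this array.

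The genes beside the 8 T-box genes were read as well. Taking the 2 nearest measured genes on each side in the RefSeq order of GRCm38.p6 gave 24 genes besides the members, with 4 higher, 3 lower and 17 not called, beside 31.8% called among all genes. Their median log2 fold change was -0.011, and 0 passed the threshold of the study. Tbx1 lies on chromosome 16, where 3 of its 4 neighbours rose while it fell. Named after their values were seen, these were Gnb1l at 0.56 (SE 0.046, adjusted p = 0.00018), Gp1bb, a platelet glycoprotein gene, at 0.55 (SE 0.049, adjusted p = 0.000246), and Txnrd2, a mitochondrial thioredoxin reductase gene, at 0.39 (SE 0.050, adjusted p = 0.00131 from limma). Gnb1l had levels of 8.51, 8.50 and 8.56 in Atxn3-KO MEFs and 7.98, 7.91 and 8.003 in Atxn3-WT MEFs, so its groups stood apart in the direction opposite to Tbx1. Next to each other on chromosome 11, Tbx2 fell and Tbx4 was not called, with Brip1 at -0.17 (SE 0.050, adjusted p = 0.0431). On chromosome 5 the adjacent Tbx3 and Tbx5 both rose, while Rbm19 beyond Tbx5 was lower at -0.33 (SE 0.044, adjusted p = 0.00169 from limma). Beside Tbx18 on chromosome 9, Snx14 had 0.19 (SE 0.047, adjusted p = 0.0227) and Nt5e -0.16 (SE 0.045, adjusted p = 0.0377), and no neighbour of Tbx15 on chromosome 3 or of Tbx20 on chromosome 9 was called. The last 4 named neighbours were also chosen after their values were seen.

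**Figure D3:**
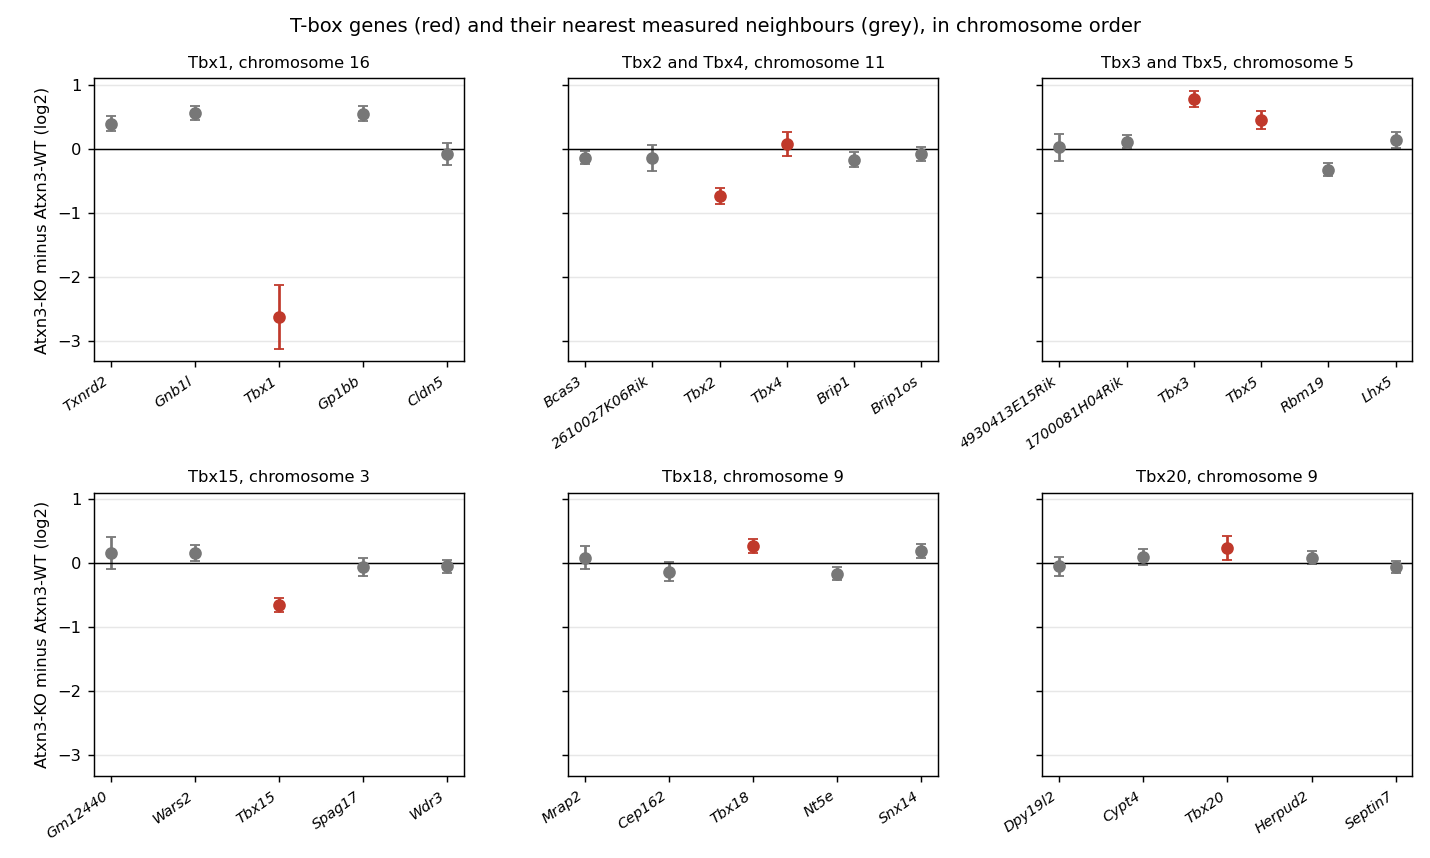
Log2 fold change (Atxn3-KO minus Atxn3-WT) of each T-box gene and of the 2 nearest measured genes on each side, in their order along the chromosome, with 95% intervals from limma, T-box genes in red and neighbours in grey. Tbx1 at -2.63 stands among neighbours between -0.081 and 0.56.

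Tbx1 was the only member past the threshold of the study, and its 6 levels were compared with those of 350 other genes past it. The most alike were Adamts20, a secreted metalloprotease gene of pigment cell development (Pearson r 0.994 over 6 arrays), 9930012K11Rik (0.994) and Gucy1a2, a subunit of the nitric oxide receptor guanylate cyclase (0.993). Adamts20 had 4.37, 4.20 and 4.99 in Atxn3-KO MEFs and 6.57, 6.45 and 6.53 in Atxn3-WT MEFs, a log2 fold change of -1.998 (SE 0.18), and like Tbx1 it was highest of the Atxn3-KO arrays on replicate 3. The log2 fold changes of 9930012K11Rik and Gucy1a2 were -1.12 (SE 0.065) and -1.37 (SE 0.10). The Adamts20 levels and the Atxn3-KO levels of Gucy1a2 lie within the range of the genes of specialised cells, so their fold changes are not exact. The 6 arrays share the split between the genotypes, and 107 of the 350 genes had an r over 0.95, so such an r mostly describes that split. Of all genes past the threshold, 233 rose and only 118 fell, Tbx1 among the latter. The 107 are thus better read beside the genes that fell than beside all 350.

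Factors that work with T-box proteins moved both ways. Of 19 measured transcription factors and corepressors of this kind, 7 rose, 4 fell and 8 did not pass, where 31.8% of all genes were called in either direction. Their median log2 fold change was 0.063, against 0.0021 over all genes. Eya1, a transcriptional coactivator that acts in the ear and pharynx, had 6.96, 6.76 and 6.93 in Atxn3-KO MEFs and 9.11, 9.07 and 8.98 in Atxn3-WT MEFs. It fell by 2.17 on the log2 scale (SE 0.068, adjusted p = 2.15e-06 from limma), with the groups far apart. Atxn3-KO replicate 2 of Eya1 lies within the range read for the genes of specialised cells, so this fold change is not exact. The forkhead factors Foxc2 and Foxc1, which act upstream of Tbx1 in the mouse head mesenchyme, rose instead. Foxc2 had 8.98, 8.997 and 9.02 in Atxn3-KO MEFs and 7.91, 7.53 and 7.77 in Atxn3-WT MEFs, a log2 fold change of 1.26 (SE 0.092), and Foxc1 had one of 1.18 (SE 0.049).

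Among 20 measured genes known in the mouse to respond to T-box factors, 6 rose, 4 fell and 10 did not pass, beside the same 31.8% of all genes, and the median log2 fold change was 0.0039. Has2, the hyaluronan synthase of the heart cushions, had 7.67, 7.76 and 7.77 in Atxn3-KO MEFs and 6.55, 6.19 and 6.58 in Atxn3-WT MEFs, a log2 fold change of 1.29 (SE 0.10, adjusted p = 0.000161 from limma). Mycn, a growth-promoting factor, had 6.16, 6.21 and 6.34 in Atxn3-KO MEFs and 7.59, 7.58 and 7.32 in Atxn3-WT MEFs, and fell by 1.26 on the log2 scale (SE 0.087). The lymphatic growth factor gene Vegfc had a log2 fold change of -0.78 (SE 0.050), on a probe set with the suffix for probes that can also match other transcripts. Each of these 3 genes had groups that did not overlap. The Atxn3-WT levels of Has2 and the Atxn3-KO levels of Mycn lie within the range read for the genes of specialised cells. The fold changes of Has2 and Mycn are therefore not exact.

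Factors of limb and body position included 26 measured genes, of which 11 rose, 7 fell and 8 did not pass, beside 31.8% of all genes called in either direction, and the median log2 fold change was 0.052. Hoxc4 and Hoxc8, members of the Hoxc cluster that mark position along the trunk, rose by 1.39 (SE 0.051) and 1.15 (SE 0.052) on the log2 scale. In the same cluster Hoxc5, Hoxc6 and Hoxc9 rose too, but Hoxc10 fell, with a log2 fold change of -0.60 (SE 0.042). These further Hoxc genes were named after their values were seen. Meis2, a partner of Hox proteins in the proximal limb, had 8.94, 8.95 and 8.99 in Atxn3-KO MEFs and 10.39, 10.28 and 10.30 in Atxn3-WT MEFs. Its log2 fold change was -1.36 (SE 0.048, adjusted p = 3.4e-06 from limma).

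**Figure D4:**
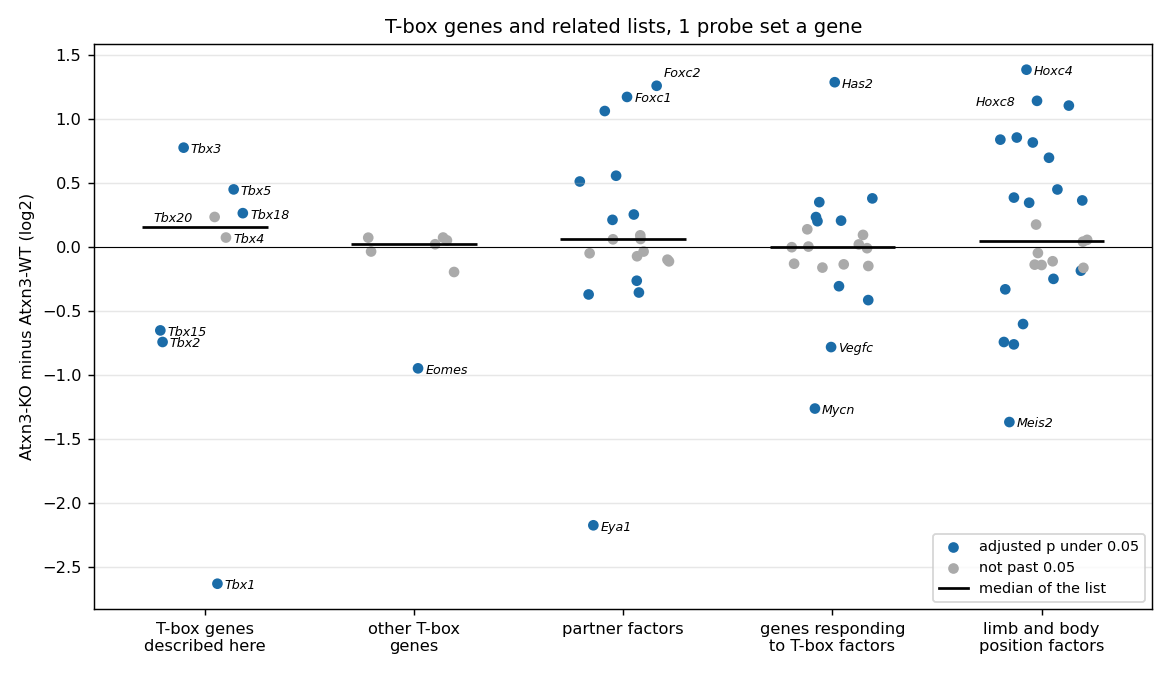
Log2 fold change (Atxn3-KO minus Atxn3-WT) of each measured gene in the lists of the T-box members, their relatives, partners, responders and position factors, by the brightest probe set, in blue for an adjusted p under 0.05 and grey otherwise, with a line at the median of each list and names for the members and the called genes of largest change. Every list holds genes near 0, and the 8 members range between -2.63 (Tbx1) and 0.78 (Tbx3).

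Markers of other cell types were read beside the T-box genes, and their part in the results was not tested. Beside the counts below stands a share of 31.8% of all genes called in either direction. Of 10 heart muscle markers, Tnnt2, cardiac troponin T, fell with a log2 fold change of -1.45 (SE 0.24, adjusted p = 0.00434 from limma), with 3.99, 4.86 and 4.86 in Atxn3-KO MEFs and 6.30, 5.97 and 5.79 in Atxn3-WT MEFs. In both genotypes Tnnt2 lay within the range read for the genes of specialised cells, so its fold change is not exact. The Tnnt2 probe set also has the suffix for probes that can match other transcripts. The other 9 heart muscle markers did not pass. The summed log2 level of the list was 45.5 to 47.0 in Atxn3-KO MEFs and 46.9 to 47.7 in Atxn3-WT MEFs. Of 8 mesothelium and epicardium markers, Msln (-0.58, SE 0.076) and Wt1 (-0.30, SE 0.088) fell and 6 did not pass. Their summed levels were 46.0 to 46.4 in Atxn3-KO MEFs and 46.7 to 47.5 in Atxn3-WT MEFs. Wt1 was dim, with means of 4.42 in Atxn3-KO MEFs and 4.72 in Atxn3-WT MEFs. Epithelial markers were higher for Krt18 (1.27, SE 0.066) and Epcam (0.38, SE 0.052), 2 of 8. Summed levels, which include these 2 genes, were 45.7 to 46.0 in Atxn3-KO MEFs and 43.9 to 44.8 in Atxn3-WT MEFs. The other 6 did not pass, with Krt8 at 0.051. Krt18 was dim, below the 25th percentile on 2 Atxn3-WT arrays, so its fold change is not exact. The Epcam probe set has the suffix for probes that can also match other transcripts. Neural markers fell for Tubb3 (-0.95, SE 0.053) and Nes (-0.51, SE 0.045) and rose for the dim Sox2 (0.25, SE 0.065), with 2 higher and 2 lower of 8 and summed levels of 49.6 to 49.7 in Atxn3-KO MEFs and 50.5 to 51.1 in Atxn3-WT MEFs. Among 9 skeletal muscle markers Pax3 fell (-0.39, SE 0.045), and the summed levels overlapped. None of 7 endothelial or 8 macrophage and blood markers was called by limma, with 0 and 2 at an unadjusted p under 0.05, and the highest levels there were those of Kdr and Esam and of Cd14 and Csf1r. Fibroblast markers changed for Postn (0.94, SE 0.043), Lum (0.60, SE 0.14) and Col3a1 (-0.28, SE 0.043), with 3 higher and 3 lower of 12. Lum was dim, with 2 of 3 Atxn3-KO arrays and 3 of 3 Atxn3-WT arrays below the 25th percentile, so its fold change is not exact. Below the 25th percentile of every array were 2 of the heart muscle, 1 each of the mesothelium, epithelial, neural and skeletal muscle, 3 of the endothelial and 2 of the macrophage markers, and 0 of the fibroblast markers.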

How the data were processed

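RNA from 3 Atxn3-KO and 3 Atxn3-WT MEF samples was measured on Affymetrix GeneChip mouse genome arrays. The authors deposited log2 values normalized by robust multi-array average (RMA), which subtracts background, gives all arrays the same distribution and combines the probes of a set, so it would hide a shift shared by every gene. RMA and limma are named, without versions, in the submitters' processing notes. Scanned intensities and detection calls were not analysed here, so a level has no call of presence.

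From the 45101 probe sets, 64 controls were left out. limma 3.58.1 in R 4.3.3 fitted the difference of Atxn3-KO over Atxn3-WT, all arrays weighted equally, because the weights of the paper's weighted linear model are not given in the sources used here. The Benjamini-Hochberg adjustment ran over all 45037 probe sets. A probe set was called at an adjusted p under 0.05, and the stricter threshold stated in the paper asks for a change of 2-fold or more with an adjusted p no higher than 0.001. Probe sets were taken where the platform annotation names a listed gene and no other. Gene lists used the probe set with the highest mean level of each gene.

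The members and all lists were chosen with earlier results of these data known. Named were every member and other measured T-box gene, Atxn3, up to 3 called genes per list with the largest change (where none was called, up to 2 with the highest level), and the 3 genes most like a member past the stricter threshold. Some other genes were named after their values were seen. The fit was tested on simulated data. The fit was repeated with array weights, with a replicate block, after quantile normalization or median centring, without dim probe sets, with a variance trend or robust variances, at other thresholds, with the median over a gene's probe sets and without each array in turn. The replicate numbers did not pair the arrays: deviations of same-numbered arrays from their group means correlated between -0.036 and 0.021 over probe sets.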

Additional observations from a re-analysis of the deposited data

How the results depend on the processing

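Across the alternatives that kept the threshold of 0.05 on the adjusted p, between 10 and 13 T-box probe sets were called, against 12 of 18 with the design as reported. The fit without dim probe sets tested only 11 T-box probe sets and called 11. The 13 came from the fit with a variance trend, which called 13904 probe sets in all. Leaving out each array in turn gave 10 to 11, and 8834 to 10011 over all probe sets, against 11696. When limma tested for more than a 1.2-fold change 7 T-box probe sets were called, and with the stricter threshold of the paper 1 was called, since both ask for more. That call, for Tbx1, gave a count of 0 with the replicate block and of 0 to 1 when each array was left out. The block was an assumption here, since the replicate numbers did not pair the arrays. It called 9801 probe sets in all and 11 T-box probe sets, losing 1445757_at of Tbx3. Leaving out dim probe sets, or letting the variance follow the level, brought 1453351_at of Tbx20 under the threshold, at adjusted p-values of 0.0267 and 0.0196 from limma. Of the probe sets that were not called, 1439567_at of Tbx3 ranged from -0.021 to 0.17 and 1456033_at of Tbx4 from -0.0094 to 0.16 on the log2 scale when each array was left out, so neither has a settled direction. Taking the median over a gene's probe sets called 7 of 8 genes, against 6 by the brightest probe set. The share of all genes called in that fit was not counted, so the 7 has no share to stand beside. The causes were not tested. The number of arrays and dim signals limit the precision.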
